A study of Mus musculus with 6 samples.

Results

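The genes of the NF-κB subunits and of the IκB proteins that bind them were followed in 4T1 cells before and after selection with methotrexate. The group was set by name and held 10 genes, the subunit genes Nfkb1, Nfkb2, Rel, Rela and Relb, the classical IκB genes Nfkbia, Nfkbib and Nfkbie, and the nuclear IκB genes Nfkbiz and Bcl3. Of these, 9 had a probe set with a single gene symbol, 1 for each gene, among 19933 genes measured on the arrays, and Nfkb1 was not analysed here. The 4T1 line grew out of a BALB/c mouse mammary carcinoma, and methotrexate (MTX), used in chemotherapy, blocks folate metabolism. The parental, untreated 4T1 cells (WTR-) were measured on 3 arrays. A further 3 arrays measured MR13, the 4T1 cells that survived MTX at 13 µg/ml, given for up to 2 weeks according to the labels. The study's text describes a different concentration and a longer exposure, and a return of the survivors to normal medium. The labels do not say whether the drug was present when RNA was taken. Each group came from triplicate wells of 1 line, so MR13 stands for 1 selection and the spread covers wells or cultures only.

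NF-κB is a family of dimeric transcription factors that the cell stores in the cytoplasm. The classical IκB proteins mask the dimers, and inflammatory signals activate the IκB kinase (IKK) complex, which marks these inhibitors for degradation. Released dimers enter the nucleus and switch on cytokine, chemokine and survival genes, and also genes of their own inhibitors, which closes a feedback loop. The nuclear IκB proteins work on the DNA-bound dimers and can either raise or dampen transcription. In breast cancer cells the pathway is known for its links with inflammation, survival under drug treatment and metastasis.

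Array medians lay between 6.57 and 6.62 on the log2 scale, and arrays of a group correlated across all probe sets at r of 0.998 or higher. The mean level of 7 epithelial markers was 11.98 to 12.05 on the WTR- arrays and 9.16 to 9.31 on the MR13 arrays, and 6 of them were lower in MR13, including Epcam, Cdh1 and Cldn4 and, by only 0.19, Krt18, whereas Krt8 was not called, at 13.41 in WTR- and 13.53 in MR13. The 11 measured leukocyte markers had mean levels of 5.50 to 5.60 in WTR- and 5.58 to 5.62 in MR13. Of these, 8 were among the dimmest 30% of genes, with Ptprc at 5.17 and 5.22, and only Cd68 was called, higher in MR13. The 8 fibroblast markers averaged 5.78 to 5.94 in WTR- and 6.39 to 6.52 in MR13, with Pdgfra, Dcn and Acta2 higher and the other 5 not called, and none of 6 endothelial markers was called. The part of these shifts in the results for the NF-κB genes was not tested. In bulk RNA a change in the share of cells that express a gene and a change in RNA per cell cannot be told apart.

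The largest differences were in 2 IκB genes, the classical inhibitor gene Nfkbia and the nuclear IκB gene Bcl3. MR13 cells had 2.49-fold more signal for Nfkbia and 1.99-fold more for Bcl3 than parental cells, and smaller rises of Nfkbie, Nfkbiz and Relb, between 1.22-fold and 1.27-fold. Rela fell slightly, 1.14-fold, and Rel, Nfkb2 and Nfkbib did not pass the test. Of the 9 measured genes, 5 were higher in MR13 and 1 was lower (limma, adjusted p under 0.05 over all 19933 genes), while 17.0% of all genes were called higher and 20.6% lower. The median log2 difference of the 9 genes was 0.29, beside 0.01 for all genes. The values of MR13 and WTR- did not overlap for 7 of the 9 genes, and for 47.4% of all genes. MR13 lay above WTR- for 6 of them, as for 22.2% of all genes, and below for 1, as for 25.2% of all genes.

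**Figure D1:**
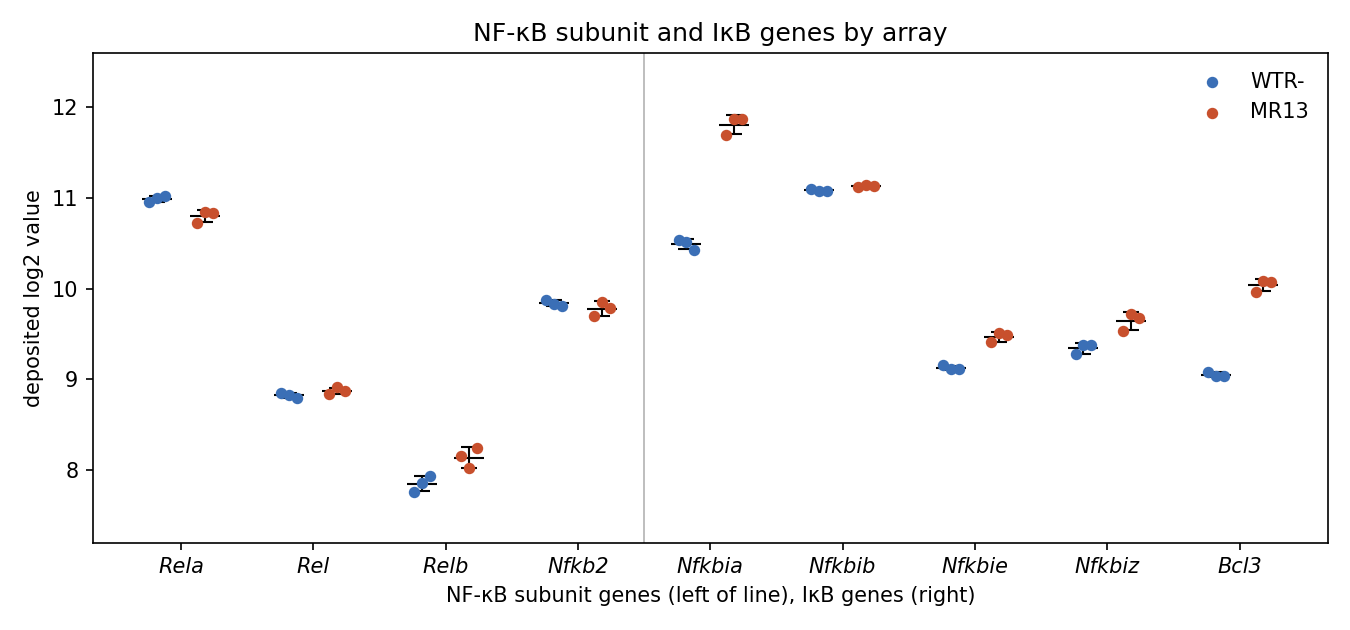
Log2 values as deposited (y axis) for 9 NF-κB subunit and IκB genes (x axis), with 1 point for each WTR- array and each MR13 array (3 each); black lines give the mean and whiskers the SD. Nfkbia and Bcl3 show the widest separation of the groups, with means of 10.49 and 11.81 for Nfkbia and of 9.05 and 10.04 for Bcl3, and levels of different genes are not comparable.

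Nfkbia encodes IκBα, the inhibitor that NF-κB itself induces most quickly and that ends a wave of activity. On the log2 scale its values (probe set 10400405) were 10.53, 10.52 and 10.43 on the WTR- arrays and 11.69, 11.87 and 11.87 on the MR13 arrays. The lowest MR13 array lay 1.16 above the highest WTR- array. The log2 difference was 1.32 (SE 0.07, 95% CI 1.17 to 1.47, limma adjusted p = 7.69e-07), which placed Nfkbia 227th among 19933 genes ordered from the largest rise. A larger difference in either direction was found for 2.30% of genes.

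Nfkbie encodes IκBε, a slower inhibitor of the same class. Its values (probe set 10445412) were 9.15, 9.11 and 9.11 in WTR- and 9.41, 9.51 and 9.49 in MR13, so that the groups were 0.25 apart at their nearest arrays. It rose by 0.34 (SE 0.05, 95% CI 0.22 to 0.46, limma adjusted p = 0.000747). Nfkbib, which encodes IκBβ, the third classical inhibitor, lay at 11.10, 11.08 and 11.08 in WTR- and at 11.13, 11.14 and 11.13 in MR13 (probe set 10561516). All MR13 arrays were above the WTR- arrays, by 0.02 at the nearest, and the log2 difference of 0.04 did not pass (SE 0.05, 95% CI -0.06 to 0.15, limma adjusted p = 0.526). The SDs of Nfkbib were only 0.01 in both groups, and a plain two-sample test without limma's shared variance called it (BH-adjusted p = 0.0242) at the same small size. Within the classical class the differences therefore ran from 0.04 to 1.32.

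Bcl3 encodes a nuclear IκB protein that binds dimers of the p50 and p52 subunits and can supply them with an activating domain. Its values (probe set 10560685) were 9.08, 9.04 and 9.04 in WTR- and 9.97, 10.08 and 10.08 in MR13. The groups were 0.88 apart at their nearest arrays, and the log2 difference was 0.99 (SE 0.05, 95% CI 0.87 to 1.12, limma adjusted p = 1.5e-06). Bcl3 ranked 397th from the largest rise, and 4.15% of genes differed more in either direction. Nfkbiz encodes IκBζ, a nuclear IκB protein needed for a second set of inflammatory genes, Lcn2 and Il6 among them. Its values (probe set 10439936) were 9.27, 9.38 and 9.38 in WTR- and 9.54, 9.72 and 9.68 in MR13, without overlap. It rose by 0.30 (SE 0.07, 95% CI 0.15 to 0.45, limma adjusted p = 0.00537), a size that 25.8% of all genes exceeded.

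Among the subunits, Rela encodes RelA, the main activating subunit of the classical pathway. Its values (probe set 10460631) were 10.96, 11.00 and 11.02 in WTR- and 10.72, 10.85 and 10.84 in MR13. All MR13 arrays were lower, by 0.11 at the nearest, and the log2 difference was -0.19 (SE 0.06, 95% CI -0.32 to -0.07, limma adjusted p = 0.0236). The call was lost without any 1 of 3 arrays: the adjusted p was 0.0715 without WTR- replicate 2, 0.0657 without WTR- replicate 3 and 0.0627 without MR13 replicate 1. Rel encodes c-Rel, a subunit best known from lymphocytes. It lay at 8.85, 8.83 and 8.79 in WTR- and at 8.84, 8.91 and 8.87 in MR13 (probe set 10384725), with overlapping groups, and the difference was 0.05 (95% CI -0.07 to 0.17, limma adjusted p = 0.499).

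Relb and Nfkb2 encode the pair of subunits of the alternative pathway, in which the Nfkb2 precursor is cut to p52 and joins RelB. Relb (probe set 10560575) had values of 7.76, 7.85 and 7.93 in WTR- and 8.16, 8.02 and 8.24 in MR13. The groups were 0.08 apart at their nearest arrays, and Relb rose by 0.29 (SE 0.07, 95% CI 0.12 to 0.45, limma adjusted p = 0.0122), although the plain two-sample test did not call it (BH-adjusted p = 0.0682). Nfkb2 (probe set 10463599) lay at 9.88, 9.83 and 9.81 in WTR- and at 9.70, 9.86 and 9.79 in MR13. The groups overlapped, and the difference was -0.06 (95% CI -0.19 to 0.07, limma adjusted p = 0.487). The partners of the alternative pathway thus gave 1 call and 1 value that did not pass.

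**Figure D2:**
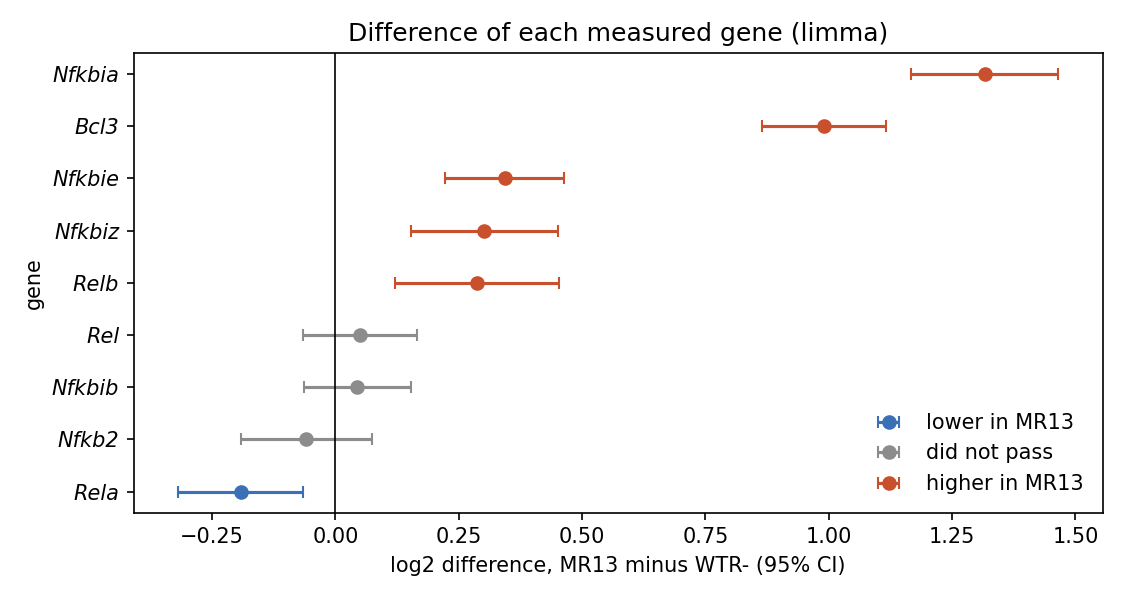
Each measured NF-κB subunit and IκB gene (y axis) against its log2 difference between MR13 and WTR- (x axis); points are limma estimates with 95% confidence intervals, and colours show which genes passed. Nfkbia at 1.32 and Bcl3 at 0.99 lie apart from the other 7 genes, which range from -0.19 to 0.34.

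Ratios between 2 genes on the same array showed how unequally the genes changed, and are given as descriptions without a test. The log2 ratio of Nfkbia to Nfkbib was -0.57, -0.56 and -0.65 on the WTR- arrays and 0.57, 0.73 and 0.74 on the MR13 arrays, a change of 1.27. The ratio of Nfkbia to Nfkbie changed by 0.97, from 1.37 ± 0.04 to 2.34 ± 0.05 (SD, n = 3 each). The 2 nuclear IκB genes also parted: the ratio of Nfkbiz to Bcl3 went from 0.29 ± 0.09 to -0.39 ± 0.03. The ratio of Relb to Rela changed by 0.48, and MR13 replicate 2 (-2.83) was the nearest of its group to the WTR- arrays (-3.19 to -3.08). The ratio of Rel to Rela changed by 0.24. A ratio of this kind compares changes only, since probe sets of different genes have no common scale of level.

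**Figure D3:**
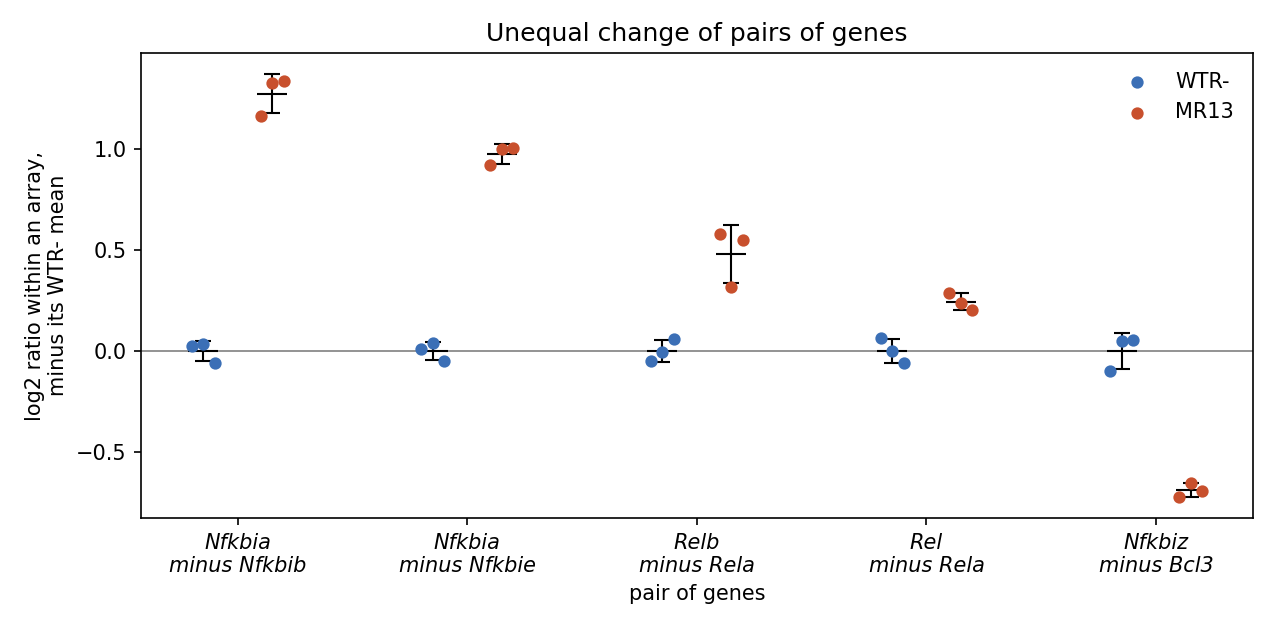
Log2 ratio of 2 genes within an array, set to 0 at the WTR- mean (y axis), for 5 pairs of genes (x axis); each point is 1 of the 3 WTR- or 3 MR13 arrays, black lines give the mean and whiskers the SD. No pair shown has overlapping groups, and the means differ by the most for Nfkbia against Nfkbib (1.27) and by the least for Rel against Rela (0.24).

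Some inhibitor genes, Nfkbia among them, are themselves known targets of NF-κB. Bases before the start site are shown for the 2 genes with the largest rise and for Nfkbib, the classical inhibitor that did not pass. RefSeq windows (GRCm38.p6) were held for 7 of the genes, 9 windows in all, and the 250 bases before each start were searched on both strands for the NF-κB consensus, the loose pattern GGGNNNNNCC, which every consensus match also fits, and the STAT pattern TTCNNNGAA. Capitals mark matches to the NF-κB consensus. The Nfkbia sequence lies at chr12:55492648-55492897, the Bcl3 sequence at chr7:19822756-19823005 and the Nfkbib sequence at chr7:28766645-28766894, all on the minus strand and written 5′ to 3′ along the gene.
Nfkbia: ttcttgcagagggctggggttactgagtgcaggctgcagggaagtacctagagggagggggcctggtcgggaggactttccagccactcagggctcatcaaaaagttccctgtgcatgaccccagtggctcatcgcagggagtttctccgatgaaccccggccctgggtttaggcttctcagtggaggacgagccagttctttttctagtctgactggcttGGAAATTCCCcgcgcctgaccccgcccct
Bcl3: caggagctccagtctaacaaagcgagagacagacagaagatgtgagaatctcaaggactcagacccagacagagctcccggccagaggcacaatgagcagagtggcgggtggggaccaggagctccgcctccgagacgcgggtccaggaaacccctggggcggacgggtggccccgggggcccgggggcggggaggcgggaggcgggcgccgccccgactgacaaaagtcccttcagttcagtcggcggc
Nfkbib: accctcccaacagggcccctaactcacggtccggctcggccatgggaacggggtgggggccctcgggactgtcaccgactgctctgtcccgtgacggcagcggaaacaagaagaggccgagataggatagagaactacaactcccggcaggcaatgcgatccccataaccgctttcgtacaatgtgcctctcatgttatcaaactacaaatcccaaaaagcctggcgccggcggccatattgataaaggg

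The NF-κB consensus matched in 6 of the 9 windows, which belong to 4 of the 7 genes, and in 3.90% of all 32851 windows. That percentage counts windows and not genes, and Nfkb2 alone gave 3 of the 6 windows with a match. Nfkbia held 1 match, GGGAATTTCC on the strand opposite to the gene, 29 to 20 bases before the start. Nfkbie held 1 match, GGGGGATTCC, 106 to 97 bases before its start. Nfkb2 held matches in each of its 3 windows, among them GGGAATTCCC, which reads the same on both strands, 39 to 30 bases before the first start, and Rel held 2 overlapping matches, among them GGGAAATCCC 92 to 83 bases before its start. Nfkbia and Nfkbie rose, whereas Nfkb2 and Rel did not pass. No match was found in these bases of Bcl3, Nfkbib or Rela. The loose pattern, present in 45.80% of all windows, was found before all of these genes except Nfkbib. The STAT pattern was found once, in the first Nfkb2 window, and in 7.02% of all windows. Matches of letters describe these windows and are not measured binding sites.

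Relb and Bcl3 lie within 217 kb of each other on chromosome 7, and both rose. The 8 measured genes between them did not move together. Of these, 1 was higher and 3 were lower in MR13, and the other 4 did not pass, with a median log2 difference of -0.12. Cblc, an adaptor and ubiquitin ligase gene and the nearest measured neighbour of Bcl3 on that side, was named after its value was seen, and it fell by 1.34 (SE 0.07, limma adjusted p = 7.79e-07). Rela and Nfkb2 share chromosome 19 but are not neighbours.

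Upstream of the inhibitors, changes went both ways. Of 27 measured genes of the IKK complex, its upstream kinases and its adaptors, 11 rose, 8 fell and 8 did not pass, with a median of 0.08, so that 70.4% were called beside 37.6% of all genes. Within the IKK complex, the kinase gene Ikbkb fell by 0.31 (SE 0.07, limma adjusted p = 0.00663), and Ikbkg, which encodes the scaffold NEMO, rose by 0.57 (SE 0.08, limma adjusted p = 0.000478). Chuk, the gene of the other IKK kinase, was not analysed here. Map3k14, which encodes NIK, the kinase of the alternative pathway, rose by 0.31. The adaptor genes Traf5 (1.76) and Myd88 (0.85) and the ubiquitin ligase gene Birc3 (0.63) had the largest rises. Ikbke, an IKK-related kinase, fell by 1.28, Tab3, which links ubiquitin chains to the kinase TAK1, fell by 0.54, and the paracaspase gene Malt1 fell by 0.49. The last 6 of these genes were picked for large differences without overlap of the groups, and Ikbkb, Ikbkg and Map3k14 by name.

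For genes that build ubiquitin chains, linear ones among them, or that act in IκB degradation, the share called was near that of all genes, dim genes included. Of 13 measured genes, 2 rose, 3 fell and 8 did not pass, with a median of 0.06, so that 38.5% were called beside 37.6% of all genes. None of the 13 was among the dimmest 30% of genes. With those dim genes left out of the fit 7640 genes were called, beside 7497 with them. The share among brighter genes was therefore above both. The ubiquitin-conjugating variant Ube2v1 rose by 0.42, but by only 0.28 with the mean of its probe sets (limma adjusted p = 0.0429). Rbck1, part of the linear ubiquitin ligase, rose by 0.21. Its catalytic subunit gene Rnf31 fell by 0.42, the cullin Cul1 by 0.19, and Btrc, whose product recognises phosphorylated IκB proteins, by 0.18. The call of Rbck1 was lost without WTR- replicate 2 or 3 or MR13 replicate 2 or 3 (limma adjusted p up to 0.0773). That of Cul1 was lost without WTR- replicate 1 or MR13 replicate 2 or 3 (up to 0.066). That of Btrc was lost without WTR- replicate 1 or 2 or MR13 replicate 1 (up to 0.0883). Btrc was also not called after quantile normalization (limma adjusted p = 0.0551), nor Rbck1 with the plain two-sample test (BH-adjusted p = 0.0556).

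Other inhibitors of the pathway did not follow Nfkbia as a group. Of 24 measured genes, 9 rose, 10 fell and 5 did not pass, with a median of -0.04, so that 79.2% were called beside 37.6% of all genes. Tnip1, which encodes an A20-binding inhibitor, rose by 0.73 (SE 0.05), the deubiquitinase gene Otud7b by 0.51 and the RNase gene Zc3h12a, which destroys cytokine mRNAs, by 0.43. Tnfaip3 encodes A20, a feedback deubiquitinase that NF-κB induces as it does IκBα. Its log2 values were 9.78, 9.75 and 9.80 in WTR- and 8.73, 8.71 and 8.78 in MR13, so that it fell by 1.04 (SE 0.05, limma adjusted p = 6.47e-07) in the cells where Nfkbia rose. The receptor inhibitor Sigirr fell by 1.14 and Pdlim2, which promotes nuclear RelA turnover, by 0.59. Nfkbid, which encodes a further nuclear IκB protein, lay lower on all MR13 arrays and did not pass (-0.19, SE 0.08, limma adjusted p = 0.0822).

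Of 39 measured genes known as NF-κB targets in other systems, 24 rose, 10 fell and 5 did not pass, with a median of 0.47. In these 2 directions 17.0% and 20.6% of all genes were called. The list was chosen with earlier results of these arrays known, so its counts are a description. Nos2, the inducible nitric oxide synthase, had the largest rise, from 6.46, 6.30 and 6.33 in WTR- to 9.45, 9.57 and 9.52 in MR13 (log2 difference 3.15, SE 0.06, limma adjusted p = 4.81e-09). The monocyte chemokine genes Ccl7 and Ccl2 followed with 2.27 and 1.93. The stress gene Gadd45b fell by 1.82 (SE 0.06, limma adjusted p = 8.01e-08), the alarmin cytokine Il1a by 1.05 and the neutrophil chemokine Cxcl2 by 0.77. These 6 genes were picked for large differences without overlap of the groups. Cxcl2 does not stand for the neutrophil chemokines of the list: Cxcl1 rose by 0.72 and Cxcl5 by 0.63. Both were named after their values were seen.

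**Figure D4:**
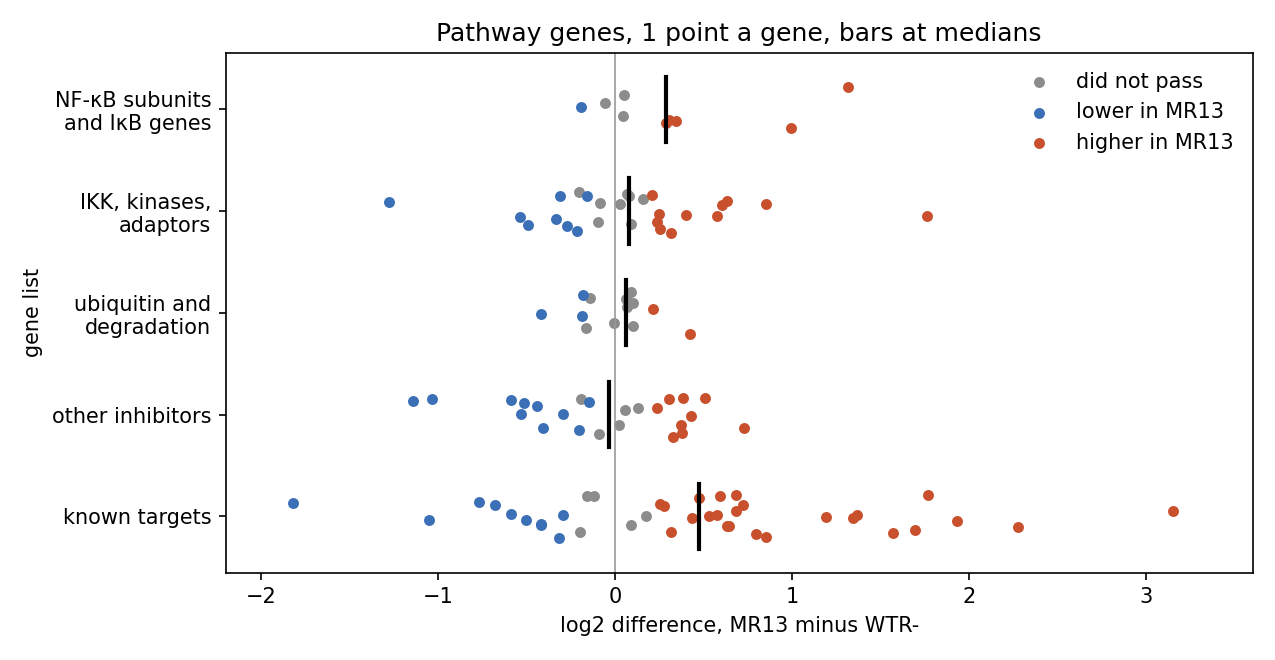
Measured genes of 5 lists (y axis) placed by their log2 difference between MR13 and WTR- (x axis), 1 point a gene, with colours for the call and black bars at the list medians. Known targets spread from -1.82 to 3.15 with a median of 0.47, and the other inhibitors lie on both sides of 0 with a median of -0.04.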

How the data were processed

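Total RNA of 6 cultures was hybridised to Affymetrix mouse gene arrays. The deposited values were log2 signals (2.42 to 14.4) that the authors had normalized between arrays. The submitters' processing notes name affy and limma. The sources used here do not state their versions or the methods of background correction and normalization. Without detection calls, background signal can understate differences of dim genes, and the number of arrays limits the precision.

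Single symbols were annotated for 21780 of 28350 probe sets, and the brightest probe set stood for each of 19933 genes. The test was limma 3.58.1 (R 4.3.3) across all genes, MR13 minus WTR-, two-sided and with no replicate block. P values were adjusted by the Benjamini-Hochberg (BH) method and called under 0.05, with the SE and 95% confidence interval from limma.

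Members and gene lists were chosen with earlier results of these data known. Each pathway list gave up to 3 named genes called in each direction, those with the largest differences and no overlap of the groups, plus Chuk, Ikbkb, Ikbkg, Map3k14 and Nfkbid. Cxcl1 and Cxcl5 were added afterwards. Alternatives covered normalization, dim genes, probe sets, the eBayes prior, the plain t-test that the methods give for 2 groups in general, the replicate block, each array left out, and limits on fold change. There were 0 columns of other samples. On simulated data with 200 changed genes among 19933, the fit found 28% of 1.25-fold changes, 76% at 1.5-fold, 98% at 2-fold and 100% at 4-fold. On the real arrays 7497 genes were called, far more than were changed here. The BH limit depends on that number, so these shares check the code and do not measure recovery in this comparison.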

Additional observations from a re-analysis of the deposited data

How the results depend on the processing

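No measured NF-κB or IκB gene changed direction after quantile normalization, median centring or the removal of any single array. The other settings among the 16 alternatives left the log2 differences of these genes as they were, so they could not change a direction. The 5 rises were called again after quantile normalization, median centring, removal of the dimmest 30% of genes, a trended prior and without any single array. The methods' t-test gave 7 of the 9 genes at an unadjusted p under the threshold (8140 of all genes) and 6 after BH adjustment (6524 of all genes), where the 5 called higher included Nfkbib and not Relb. Only Nfkbia and Bcl3 passed a 1.5-fold minimum or limma's treat at 1.2-fold (2 genes higher and 0 lower with either), while the genes called in all were 2193 and 3185 in place of 7497. The count of lower genes, Rela alone, ranged from 0 to 1 when single arrays were left out. With the 1.5-fold minimum the counts higher and lower were 4 and 1 in the IKK and adaptor list, 0 and 0 in the ubiquitin list, 1 and 3 among other inhibitors, and 17 and 5 among known targets. With treat they were 5 and 3, 1 and 0, 2 and 5, and 19 and 5. In the ubiquitin list the methods' t-test left 1 gene higher, and leaving out single arrays left 1 to 2 higher and 1 to 3 lower. These limits admit fewer genes by construction. The replicate numbers were not shown to pair the samples: deviations of same-numbered arrays from their group means correlated at 0.08, 8.67e-05 and 0.19, and 3 of 6 arrays correlated best with their own number. With the replicate number as a block 7442 genes were called, and 5 members were higher and 1 lower, as without it. All 9 genes were brighter than the dimmest 30% of genes, whose means end at 5.51. So were all measured genes of the IKK, ubiquitin and other inhibitor lists, and all but 3 known targets. The shares given for all genes include the dim ones. Without the dim genes 7640 genes were called, so shares among brighter genes were higher. The contrasts with the IKK, other inhibitor and known target lists were then smaller. The ubiquitin list, near the share of all genes, had 2 genes higher and 4 lower of 13 in that fit. Its share then lay below that of the brighter genes.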
